A study of Drosophila melanogaster with 24 samples.

Results

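The mitochondrial ribosomal protein genes of the fly carry symbols that begin with mRpL, for proteins of the large subunit, or mRpS, for proteins of the small subunit. They were chosen by symbol, as all genes whose probe set annotation gave mRpL or mRpS followed by a number. This rule used no expression value, but it was set with earlier results of these data known. On arrays whose single-gene probe sets stood for 11982 genes, 69 such genes had a probe set of their own, 44 of the large and 25 of the small subunit. RefSeq lists 73 genes with such symbols (assembly Release 6 plus ISO1 MT). Of the other 4, mRpS10 and mRpL53 shared their probe sets with another gene, and for mRpL34 and mRpL37 no probe set was found in the annotation used here. For mRpS11 and mRpL47, which had 2 probe sets each, the one with the higher mean signal was used.

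The mitochondrial ribosome makes the few proteins encoded in mitochondrial DNA, which are core subunits of the respiratory chain and the ATP synthase. Its own proteins are encoded in the nucleus, made in the cytoplasm and imported. Part of them have bacterial counterparts of the same number, and others belong to mitochondria alone. In flies the loss of such a protein impairs respiration and slows growth.

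The series used S2 cells, a hemocyte-like line from fly embryos, and S2 lines that expressed Delta (S2-Dl), Delta without its intracellular domain (S2-DlDI), or NFull or NDCterm, which are read here as forms of Notch because the labels do not spell them out. Delta is a membrane ligand that activates the receptor Notch on a neighbouring cell. Cells were mixed for 45 minutes, and RNA of 2 independent samples was pooled for each replicate. The sources used here do not give whether a line was 1 clone or what drove its construct. The samples analysed were S2-NFull/S2-Dl, S2-NFull/S2-DlDI and S2-NFull/S2 with 1 sample each, S2-NDCterm/S2-Dl, S2/S2-NDCterm and S2/S2-DlDI with 2 each, and S2/S2-Dl and S2/S2 with 3 each. Every mix holds S2 cells or lines made from them, and each named construct is present in 1 line only. A property of a line and a response to mixing therefore cannot be told apart in a comparison that changes the line.

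The deposited values are array signals on a linear scale, scaled to a common mean on each array. Delta read 11070 to 12968 in the S2/S2-Dl samples, against 20.4 to 41.3 in S2/S2. In S2/S2-DlDI it read 11.9 and 15.3, so its probe set did not check that construct. The source label names late embryonic epidermal tissue, but none of 11 epidermal markers reached a signal of 100 in S2/S2, whereas 6 of 12 blood cell markers did. Of 24 arrays, 8 that shared a title with an unlike array were left out of the tests. The S2/S2 sample of replicate 2 stood apart in its median signal over all probe sets (20.96, against 10.3 to 14.2 in the other 14 samples), and the results that rest on it are also given without it.

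All 69 genes were detected well above the array median. The lowest signal of each gene was at least 100 in all 15 samples, whereas the median over probe sets was 10.2. The SD of log2(signal + 32) over the 15 samples had a median of 0.196 over the 69 genes and ran from 0.0841 to 0.549. Over the 9385 probe sets at or above the median signal it was 0.226. It was at most 0.2 for 36 of the genes and at most 0.3 for 60. The most variable were mRpL39, mRpL14, mRpL16, mRpL35 and mRpL49, all of the large subunit.

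**Figure D1:**
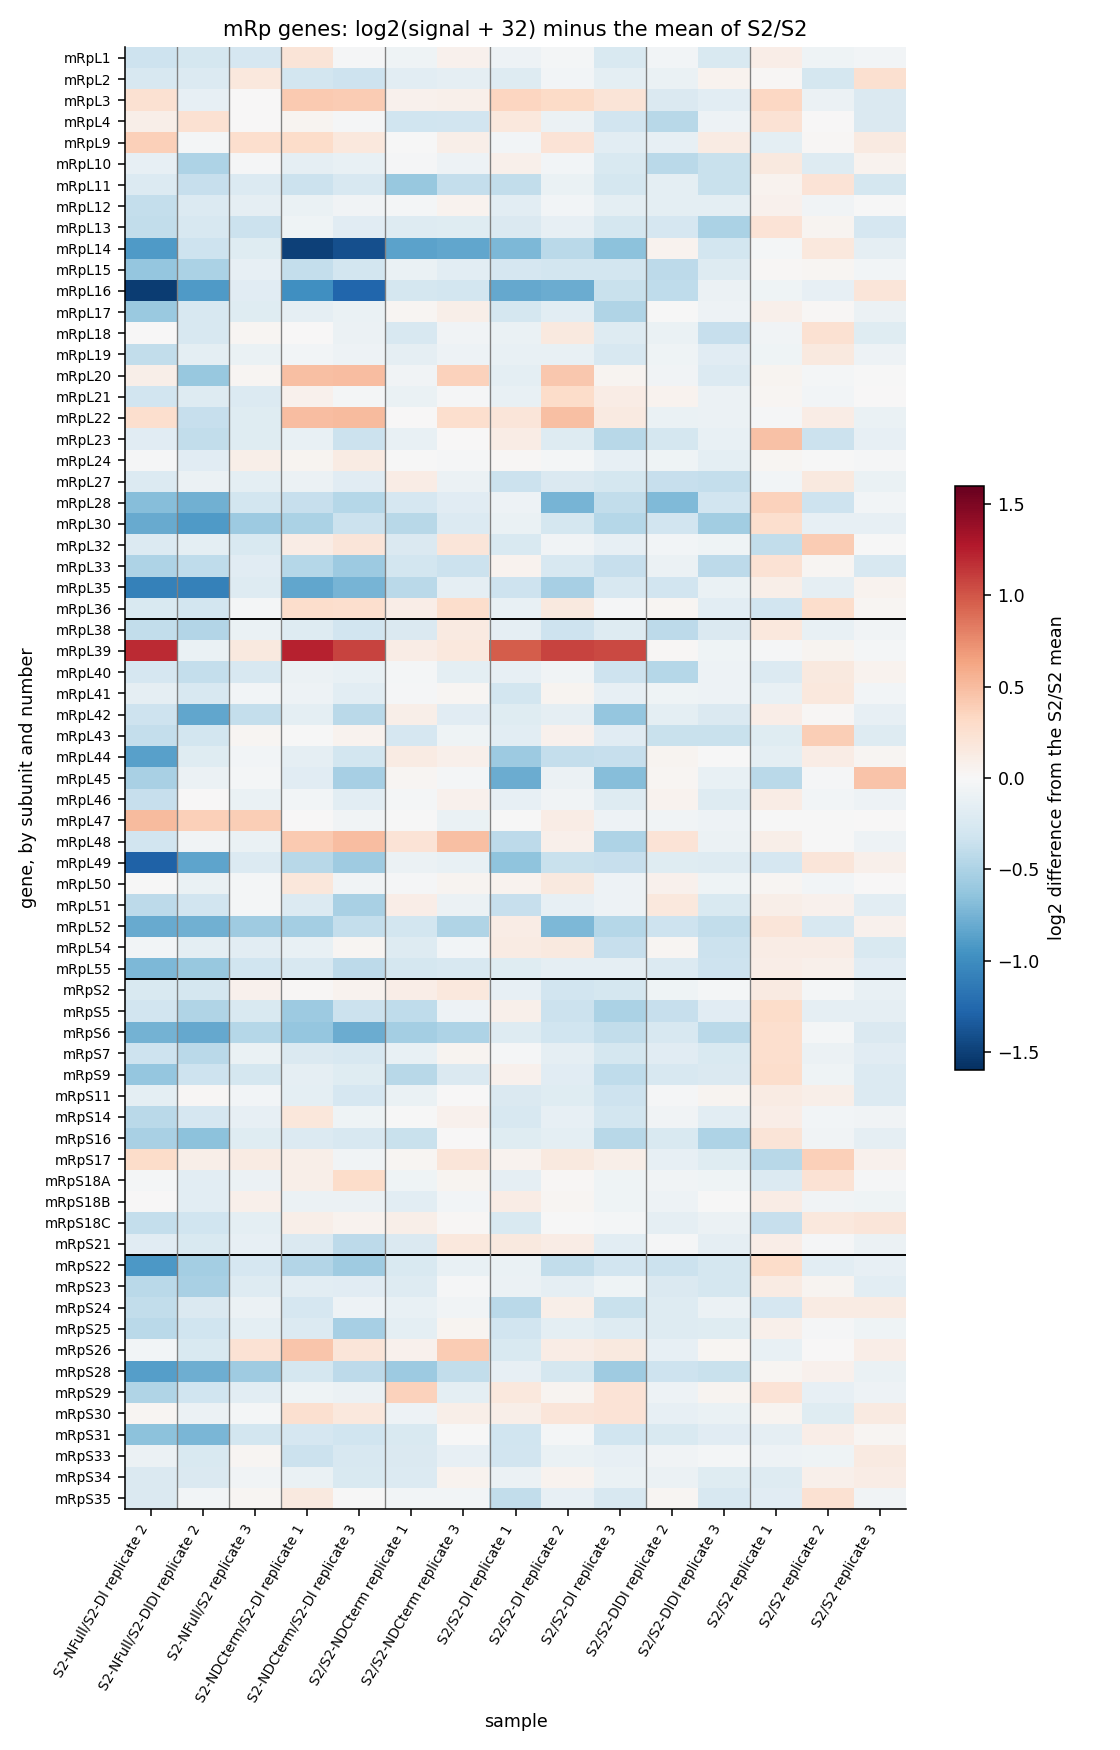
Each row is a gene, grouped from top to bottom as large subunit up to number 36, large subunit from 37, small subunit up to 21 and small subunit from 22, and each column is a sample; the colour gives log2(signal + 32) minus the mean of the 3 S2/S2 samples. The row of mRpL39 is red in the 6 samples with Delta cells, and the rows of mRpL14 and mRpL16 are blue there. mRpL14 is also blue in the 2 S2/S2-NDCterm samples, and mRpL16 in the S2-NFull/S2-DlDI sample.

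Changes were tested with limma's moderated test across all 18769 probe sets, on log2(signal + 32), in 9 comparisons between mixes and 2 tests of whether the change with Delta cells differed between backgrounds. A gene is called when its p-value, adjusted by the Benjamini-Hochberg method over all probe sets of the comparison, is below 0.05. Of the 69 genes, 3 were called in at least 1 comparison and 66 in none. mRpL39 was called higher in all 5 simple comparisons that set a mix with Delta cells against one without. mRpL16 was called lower in 2 of these 5 and mRpL14 in 1, and mRpL14 was also called lower in S2/S2-NDCterm against S2/S2, which holds no Delta cells. Neither mRpL14 nor mRpL16 was called in S2/S2-Dl compared with S2/S2-DlDI (-0.48 and -0.41, adjusted p = 0.195 and 0.473).

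mRpL39 is a protein of the large subunit with no bacterial counterpart, and its gene lies on chromosome arm 3L. Its signal was 951, 1031 and 1018 in S2/S2-Dl, against 465, 489.5 and 461 in S2/S2. The groups did not overlap, and each spread over a far smaller range than the distance between them. The log2 change was 1.03 ± 0.09 (SE, adjusted p = 4.17e-05), and it was 1.06 without S2/S2 replicate 2 (adjusted p = 0.000197). In this comparison 1.31% of all probe sets were called, and 3 of the 69 genes were. By direction, mRpL39 alone of the 69 was called higher, where 1.11% of all probe sets were, and 2 were called lower, where 0.197% were. In RNA of mixed cells, a change in the number of cells of 1 kind and a change in the RNA per cell cannot be told apart.

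The 2 S2/S2-DlDI samples read 477 and 449 for mRpL39, within the range of S2/S2 or just below it. The change between S2/S2-Dl and S2/S2-DlDI was 1.06 ± 0.10 (adjusted p = 0.000149), and mRpL39 was the only 1 of the 69 genes called, where 0.639% of probe sets were. At an unadjusted p below 0.05, 9 genes passed, against 8.32% of probe sets. The change of S2/S2-DlDI against S2/S2 was -0.03 ± 0.10 (adjusted p = 0.949). So the level of mRpL39 with the shortened Delta was not separated from that of plain S2 cells, at an SE of 0.10.

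The same gene stood out when the Delta line met the other lines. In S2-NDCterm/S2-Dl its signal was 1146 and 1033, against 514.5 and 535 in S2/S2-NDCterm, with no overlap. The change was 1.01 ± 0.11 (adjusted p = 0.00066). It was the only 1 of the 69 genes called, where 0.49% of probe sets were, and 9 passed an unadjusted p below 0.05, against 7.63% of probe sets. With NFull cells the single S2-NFull/S2-Dl sample read 1117, against 528 in S2-NFull/S2 and 436 in S2-NFull/S2-DlDI. The changes were 1.04 ± 0.16 (adjusted p = 0.0113) and 1.30 ± 0.16 (adjusted p = 0.0023). In these 2 comparisons 2 and 1 of the 69 genes were called, against 0.293% and 0.213% of probe sets. At an unadjusted p below 0.05, 11 and 6 genes passed, against 9.52% and 7.22%. They rest on 1 sample a mix, whose spread is taken from the other mixes.

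Tested directly, the change of mRpL39 with Delta cells in the NDCterm background differed from that in plain S2 cells by -0.03 ± 0.14 (adjusted p = 0.997), and the change in the NFull background by 0.00 ± 0.18 (adjusted p = 0.999). None of the 69 genes was called in either test of a difference by limma, where 0.0107% and 0.0213% of probe sets were. At an unadjusted p below 0.05, 1 and 2 of them passed, against 3.46% and 5.21% of probe sets. The small groups limit what these tests can separate, as the SEs show.

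**Figure D2:**
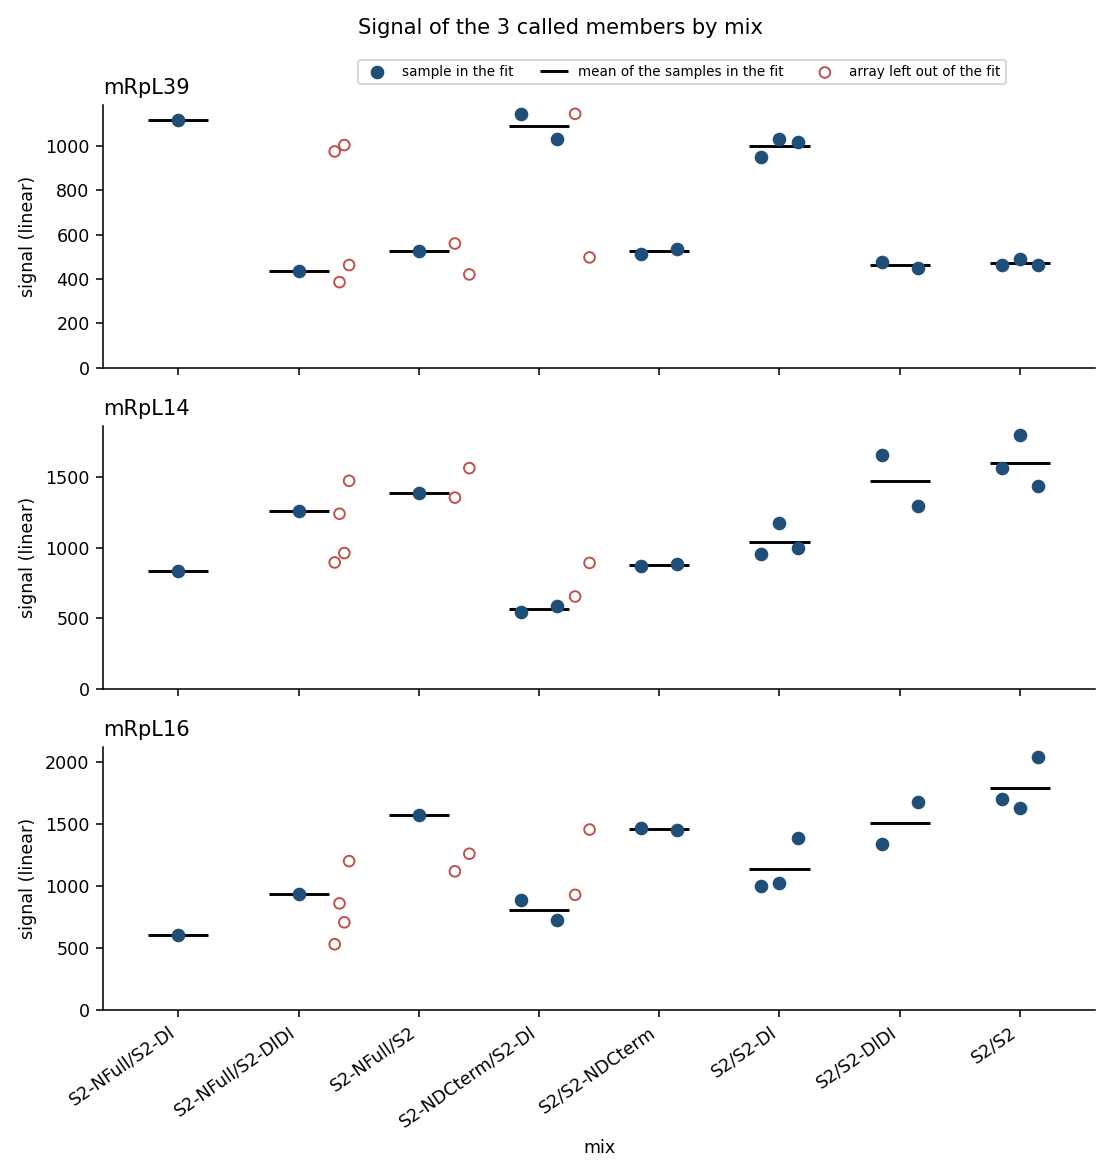
Filled points are samples in the tests, short lines are their means, open circles are arrays left out of the tests, and the vertical axes are linear signal from 0, for mRpL39, mRpL14 and mRpL16 in the 8 mixes. mRpL39 lies between 951 and 1146 in the filled samples with Delta cells and between 436 and 535 in all others.

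mRpL14, a conserved protein that in human mitochondria lies at the contact between the subunits, moved the other way. Its gene is on the X chromosome. Its signal was 955, 1176 and 1000 in S2/S2-Dl, against 1563, 1799 and 1439 in S2/S2, and the groups did not overlap. The log2 change was -0.60 ± 0.12 (adjusted p = 0.0274). Without S2/S2 replicate 2 it was -0.52 (adjusted p = 0.0813), and the call was also lost without S2/S2-Dl replicate 1 (adjusted p = 0.124) or replicate 3 (adjusted p = 0.0967).

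mRpL14 was lower in the mix of NDCterm cells with plain S2 cells as well. It read 870 and 883 in S2/S2-NDCterm, below every S2/S2 sample, with a change of -0.84 ± 0.14 (adjusted p = 0.0308). It was the only 1 of the 69 genes called there, where 0.165% of probe sets were. At an unadjusted p below 0.05, 5 passed, all lower, against 9.47% of probe sets. Without S2/S2 replicate 2 the adjusted p was 0.0684, and with only 1 of the 2 S2/S2-NDCterm samples it was 0.373 or 0.455. With Delta cells added, in S2-NDCterm/S2-Dl, it read 546 and 584, the 2 lowest of its 15 values. That change was -0.61 ± 0.15 and missed the threshold (adjusted p = 0.139). In the NFull background it read 833 in S2-NFull/S2-Dl, against 1387 in S2-NFull/S2 and 1261 in S2-NFull/S2-DlDI (changes -0.71 and -0.58, adjusted p = 0.278 and 0.515). In S2/S2-DlDI it read 1654 and 1297, and these values enclose the lowest 2 of S2/S2 (change -0.12 ± 0.14, adjusted p = 0.812).

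mRpL16, a conserved protein near the catalytic centre of the large subunit, is also X-linked, and its gene overlaps arm in the annotation. It read 998, 1020 and 1390 in S2/S2-Dl, against 1707, 1628 and 2045 in S2/S2, with no overlap. The log2 change was -0.65 ± 0.15 (adjusted p = 0.045). This call is close to the threshold, and it was lost under 11 of 16 other settings, among them every one that left out 1 sample except the one without S2/S2-Dl replicate 3. Without S2/S2 replicate 2 the change was -0.72 (adjusted p = 0.06).

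The lowest mRpL16 value of the 15 samples was 604, in S2-NFull/S2-Dl, against 1573 in S2-NFull/S2 (change -1.33 ± 0.25, adjusted p = 0.0456) and 937 in S2-NFull/S2-DlDI (-0.61, adjusted p = 0.613). The call against S2-NFull/S2 was lost under 6 of 9 other settings, with adjusted p up to 0.131, the value with the replicate block. In S2-NDCterm/S2-Dl it read 889 and 722, against 1467 and 1448 in S2/S2-NDCterm, with no overlap (change -0.84, adjusted p = 0.0655). Values in S2/S2-DlDI were 1339 and 1676, the first below and the second within the range of S2/S2 (change -0.25, adjusted p = 0.717). The mix of NFull cells with the shortened Delta lay at -0.73 ± 0.25 against S2-NFull/S2, with an adjusted p that rounds to 1. The differences between backgrounds were -0.18 ± 0.23 for the NDCterm and -0.68 ± 0.29 for the NFull line, neither called (adjusted p = 0.997 and 0.927).

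RNA quality and markers moved with part of these values. The GAPDH control signal near the 3′ end over that near the 5′ end was 1.95, 1.74 and 2.82 in S2/S2-Dl, against 2.71, 2.77 and 2.97 in S2/S2. It was 1.58 and 1.57 in S2-NDCterm/S2-Dl, against 2.41 and 1.87 in S2/S2-NDCterm, and 1.46 in S2-NFull/S2-Dl, the lowest of the 15 samples, against 2.51 in S2-NFull/S2 and 2.65 in S2-NFull/S2-DlDI. S2/S2-Dl replicate 3, whose ratio lay in the S2/S2 range, read 1018 for mRpL39, 1000 for mRpL14 and 1390 for mRpL16. Replicates 1 and 2 of that mix read 951 and 1031 for mRpL39, 955 and 1176 for mRpL14, and 998 and 1020 for mRpL16. The 11 epidermal markers summed to 185 to 261 in S2/S2-Dl, against 117 to 170 in S2/S2. Of the 11, 1 (ovo) was called higher, and 7 and 6 were at a mean below 10. Only 4 of the 11 lay above 0, with a median change of -0.10 and a highest of 1.61. The markers summed to 207 to 244 in S2-NDCterm/S2-Dl, against 72.9 to 83.1 in S2/S2-NDCterm. There 8 of the 11 lay above 0, and ovo was called higher too. In S2-NFull/S2-Dl the markers summed to 372, against 196 in S2-NFull/S2, with 9 of 11 above 0. Without Delta cells, S2-NFull/S2 against S2/S2 had 3 of 11 above 0, with ovo higher too and a highest change of 1.51. The sums of the 12 blood cell markers were 3312 to 3650 in S2/S2-Dl, against 2833 to 3574 in S2/S2. Of these 12, 1 (crq) was called higher, and 3 were at a mean below 10 in both. In S2/S2-NDCterm, where mRpL14 was lower, the blood cell sums were 4571 to 4820, with none of the 12 called against S2/S2. The part of RNA quality and of these markers in the results was not tested.

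The replicate numbers of S2/S2-Dl and S2/S2 marked samples that deviated together, so the comparison was also fitted with the number as a block. It then called 5 of the 69 genes and 540 of all probe sets, against 3 and 245. The added genes were mRpL44, with -0.45 (adjusted p = 0.0249 with the block and 0.0643 without) and mRpL49, with -0.46 (0.0347 and 0.116). mRpL44, a protein with an RNase III-like fold and no bacterial ribosomal counterpart, read 424, 494 and 497 in S2/S2-Dl, against 583, 714 and 668 in S2/S2. mRpL49, also particular to mitochondria, read 829, 1025 and 1010, against 1085, 1511 and 1399. Neither gene overlapped between the groups.

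Both genes also read low in the other mixes with Delta cells, without passing the threshold in the fit without the block. mRpL49 was low with the shortened Delta and NFull cells too. It read 721 in S2-NFull/S2-DlDI, below all S2/S2-Dl and S2-NDCterm/S2-Dl samples, while mRpL44 read 565 there. In S2/S2-Dl compared with S2/S2-DlDI mRpL49 was not called (-0.26, adjusted p = 0.712). In S2-NFull/S2-Dl mRpL44 was at 343 and mRpL49 at 520, the lowest value of each gene among the 15 samples, against 632 and 1127 in S2-NFull/S2 (changes -0.82 and -1.07, adjusted p = 0.122 and 0.085). mRpL49 was called there with the replicate block (-1.19) and with the arrays of shared titles averaged (-0.95). The S2-NFull/S2-Dl sample is replicate 2 and the S2-NFull/S2 sample replicate 3. The block therefore takes the difference between these numbers from other mixes, and it does not pair these samples. In S2-NDCterm/S2-Dl mRpL44 was at 589 and 526, against 716 and 691 in S2/S2-NDCterm (-0.32, adjusted p = 0.541). mRpL49 was at 965 and 880, against 1235 and 1211 (-0.40, adjusted p = 0.513). The samples of both genes did not overlap in this comparison, in which 20.7% of all probe sets were lower without overlap.

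Of the 69 genes 11 are X-linked, or 15.9%, against 15.7% of all genes on the array. A further mitochondrial ribosomal protein gene on X is named tko, for technical knockout, and encodes the S12 protein of the small subunit. Its mutants have seizures when jolted and low respiratory chain activity. tko read 1382, 1409 and 1394 in S2/S2-Dl, against 1968, 2215 and 1921 in S2/S2, with no overlap and a change of -0.53 ± 0.10 (adjusted p = 0.0219). Without Delta cells tko also read below every S2/S2 sample, at 1365 and 1540 in S2/S2-NDCterm (-0.48, adjusted p = 0.18). It read 1495 in S2-NFull/S2 (-0.43). In S2/S2-DlDI it read 1842 and 1689, and S2/S2-Dl compared with S2/S2-DlDI was not called (-0.33, adjusted p = 0.342). The order on X from the tip begins with mRpL16, mRpL14 and tko, and tko is the 258th of 2192 protein-coding genes. Between mRpL16 and mRpL14 lie 71 genes, and between mRpL14 and tko 5.

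The other X-linked genes of the family lie farther along, and 8 of the 9 lay between -0.28 and 0.29 in S2/S2-Dl against S2/S2. The other was mRpL49, at -0.46, and it lay below 0 with Delta cells in all 3 backgrounds, as given above. mRpL3 was at 0.29 ± 0.13, mRpS30 at 0.17 and mRpL22 at 0.27 (adjusted p = 0.413 for mRpL3 and 0.361 for mRpL22), while mRpL33, mRpL30, mRpL38, mRpS25 and mRpS14 lay between -0.28 and -0.19. The X genes up to tko other than these 3 had a median change of -0.107 (159 genes, 69.2% below 0). Those beyond tko, family members left out, had one of -0.0282 (1022 genes, 55.6% below 0). In S2/S2-NDCterm against S2/S2, which holds no Delta cells, the medians of the 2 stretches were -0.111 and -0.0482 (68.6% and 57.9% below 0), and in S2/S2-Dl compared with S2/S2-DlDI -0.0257 and -0.00126 (57.2% and 50.2%). With Delta cells added to NDCterm cells the medians were -0.114 and 0.0439 (68.6% and 44.3%), and to NFull cells -0.0495 and 0.0347 (53.5% and 45.7%). In S2-NFull/S2-Dl compared with S2-NFull/S2-DlDI they were -0.0515 and 0.0174 (56.6% and 47.7%). Since the stretch was bounded after the values were seen, these figures are a description.

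**Figure D3:**
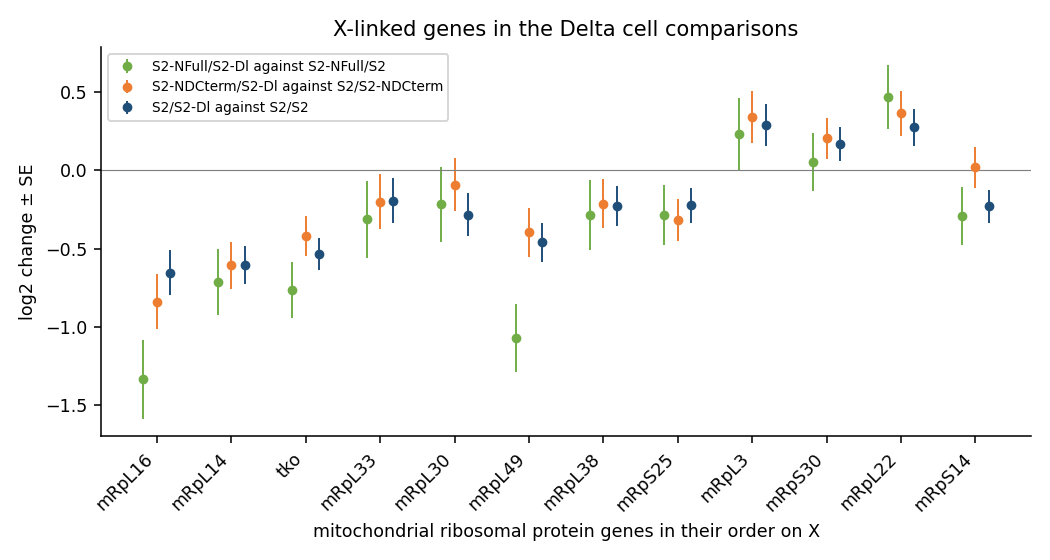
Points give the log2 change with its SE for the 11 X-linked genes and tko in their order on X, evenly spaced, in the 3 comparisons that add Delta cells to NFull, NDCterm or plain S2 cells. mRpL16, mRpL14 and tko lie below 0 in all 3, and mRpL3, mRpS30 and mRpL22 above 0 in all 3.

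The neighbours of the 3 called genes were looked at after their values were known. The gene next to mRpL39 is Prosbeta2, a catalytic subunit of the proteasome. It read 2573, 2866 and 2684 in S2/S2-Dl, against 1336, 1723 and 2051 in S2/S2 (0.68 ± 0.13, adjusted p = 0.0228). The next one, Reck, whose mammalian counterpart restrains matrix proteases, read 1011, 1194 and 1060, against 579, 832 and 706 (0.61 ± 0.12, adjusted p = 0.0255). Neither gene overlapped between the groups. With Delta cells added to NDCterm cells, Prosbeta2 lay at 0.41 and Reck at 0.54 (adjusted p = 0.516 and 0.217), and to NFull cells, at 0.33 and 0.77 (0.739 and 0.231). On the other side, Zip71B, which overlaps mRpL39 in the annotation, had a mean signal of 8.98 and a change of -0.01, and mnd was at -0.47 (adjusted p = 0.341). In S2/S2-Dl compared with S2/S2-DlDI, Prosbeta2 lay at 0.62 and Reck at 0.50, neither called (adjusted p = 0.1 and 0.177).

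Near mRpL16, Coa8, whose human counterpart helps to assemble cytochrome c oxidase, was lower in S2/S2-Dl at 758, 859 and 785, against 1055, 1201 and 1086 in S2/S2 (-0.46 ± 0.10, adjusted p = 0.0383). trr, a histone methyltransferase gene between them, was at -0.35 (adjusted p = 0.406). Other neighbours of mRpL16 had lower means in S2/S2-Dl too: Ldaf1 at 653 against 759, CG14818 at 1173 against 1272 and CG14805 at 390 against 448. Their means were also lower with Delta cells added to NDCterm and NFull cells. The dim CG3349 went the other way, at 1.61 against 1.49. No neighbour of mRpL14 within 4 genes was called in S2/S2-Dl against S2/S2. Without Delta cells Coa8 also read below every S2/S2 sample, at 834 and 875 in S2/S2-NDCterm (-0.37, adjusted p = 0.301). In S2/S2-Dl compared with S2/S2-DlDI it was not called (-0.25, adjusted p = 0.579).

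Small shifts were shared by much of the family. In S2/S2-Dl against S2/S2, 54 of 69 genes lay below 0 and the median change was -0.17, against -0.05 over all probe sets, -0.03 over those at or above the median signal, and 0.03 over 41 cytoplasmic ribosomal protein genes. Within the 3 replicate numbers the family's median was -0.21, -0.14 and -0.16, with 53, 49 and 55 genes below 0. The replicate SD of the family's median was 0.0861. Without S2/S2 replicate 2 the median was -0.16, with 49 genes below 0. Of the 69 genes, 14 were lower and 2 higher at an unadjusted p below 0.05, or 23.2% in all, against 12.2% of probe sets in all, 6.95% lower and 5.21% higher. The samples did not overlap for 17 lower and 2 higher genes, against 8.45% and 5.6% of probe sets.

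The subunits and the 2 kinds of proteins lay close together in this comparison. The 27 large-subunit genes numbered up to 36, mostly those with bacterial counterparts, had a median of -0.14 (21 below 0), and the 17 numbered from 37 one of -0.17 (14 below 0). The 13 small-subunit genes numbered up to 21 had a median of -0.17 (10 below 0), and the 12 numbered from 22 one of -0.20 (9 below 0). After the called genes the largest changes were -0.52 ± 0.21 for mRpL45, which holds the ribosome to the inner membrane in mammals, and 0.29 ± 0.13 for mRpL3, a conserved protein near the catalytic centre. mRpL45 read 301, 506 and 327 in S2/S2-Dl, against 393, 534 and 757 in S2/S2, and the groups overlapped (adjusted p = 0.334).

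A like shift was seen without the intracellular domain of Delta. In S2/S2-DlDI against S2/S2, 65 of 69 genes lay below 0 and the median change was -0.15, against -0.06 over all probe sets. None of the 69 was called by limma, where 0.0746% of probe sets were. At an unadjusted p below 0.05, 13 genes were lower and none was higher, or 18.8%, against 7.79% of probe sets in all, 4.51% lower and 3.28% higher. The samples did not overlap for 22 genes, all lower, or 31.9%, against 14.3% of probe sets lower and 7.05% higher. The cytoplasmic ribosomal protein genes lay below 0 too, all 41 of them, with a median of -0.12. This comparison shares its S2/S2 samples with the one above, so both shifts contain the same deviations of those 3 samples.

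The lowest values there were -0.50 ± 0.21 for mRpL28, which has a bacterial counterpart, -0.43 ± 0.15 for mRpL30 and -0.39 ± 0.13 for mRpL10, a stalk protein that helps to bind translation factors (adjusted p = 0.607, 0.574 and 0.567). mRpL28 read 531 and 714, against 1153, 700 and 860 in S2/S2, with overlap. mRpL30 read 647 and 540, against 979, 734 and 733, and mRpL10 389 and 413, against 599, 462 and 557, both without overlap. The highest were mRpL48 at 0.06, mRpL44 at 0.02 and mRpS11 at 0.01, all smaller than their SEs (0.17, 0.12 and 0.12). Set against each other, S2/S2-Dl and S2/S2-DlDI differed little over the family: the median was 0.04, 45 of 69 genes lay above 0, and 0.01 was the median over all probe sets.

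In S2/S2-NDCterm against S2/S2 the family's median was -0.05, equal to that of all probe sets at this rounding, with 45 of 69 genes below 0. The samples did not overlap for 14 lower and 2 higher genes, against 15.1% and 8.22% of probe sets. mRpL14 was followed by mRpS6 at -0.52 ± 0.15 (adjusted p = 0.29), mRpL11 at -0.49 ± 0.16 (0.338) and mRpS28 at -0.48 ± 0.14 (0.276). mRpS6 read 173 and 180, against 327, 260 and 223 in S2/S2. mRpL11, of the factor-binding region, read 172 and 207, against 293, 329 and 224. The groups did not overlap for either gene. The highest value was 0.35 ± 0.17 for mRpL48 (adjusted p = 0.545), at 271 and 331, against 244, 226 and 214. It belongs to the central protuberance of the large subunit. mRpS26 at 0.24 and mRpL36 at 0.20 followed (adjusted p = 0.661 and 0.711).

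With Delta cells added to NDCterm cells, the family split: 40 genes lay below 0, with a median of -0.09, against 0.01 over all probe sets. The samples did not overlap for 27 lower and 14 higher genes, or 39.1% and 20.3%, against 20.7% and 23.4% of probe sets. The large-subunit genes numbered up to 36 had a median of 0.05, and the other 3 groups medians between -0.10 and -0.08. mRpL35 lay at -0.50 ± 0.15 (adjusted p = 0.293), at 185 and 198 in S2-NDCterm/S2-Dl, against 255 and 318 in S2/S2-NDCterm. mRpL22, which lines the exit tunnel, lay at 0.37 ± 0.14 (adjusted p = 0.516), at 544 and 546, against 376 and 459. mRpL3 lay at 0.34 ± 0.16 (adjusted p = 0.672), at 374 and 372, against 287 and 289. The samples of these 3 genes did not overlap.

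**Figure D4:**
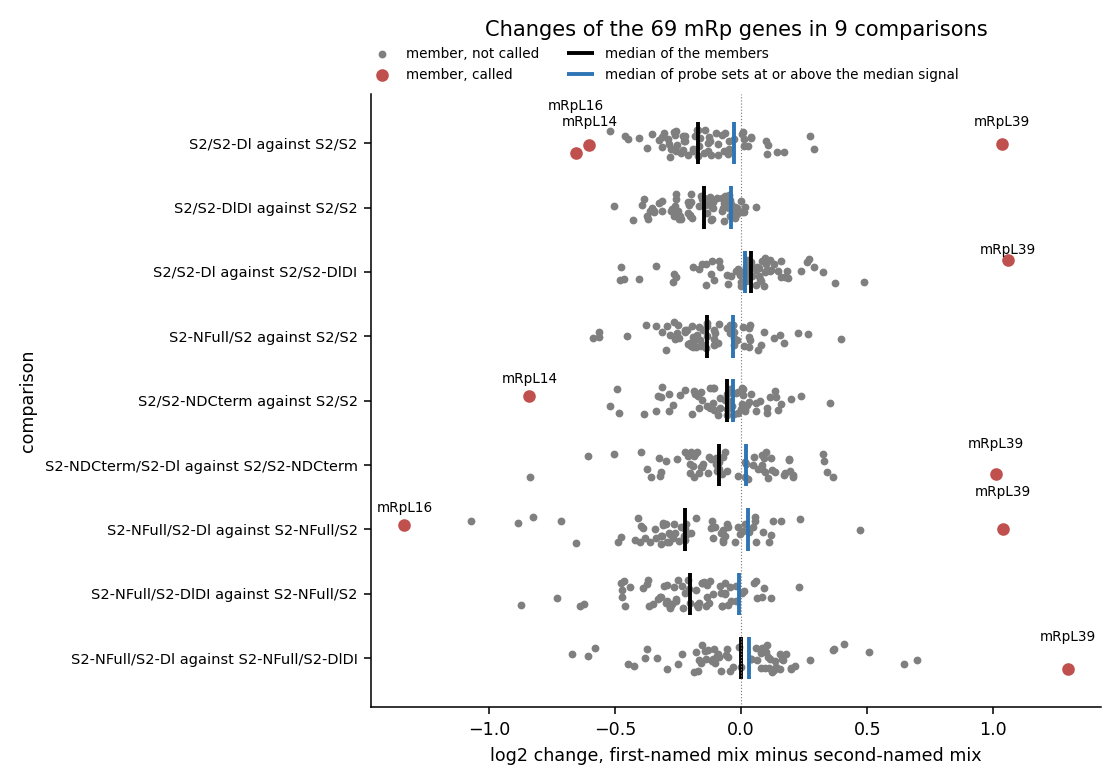
Each grey point is 1 of the 69 genes and each red, named point a called one, by log2 change in 9 comparisons; black bars are medians of the 69 genes and blue bars medians of the probe sets at or above the median signal. The black bar lies left of the blue one in all comparisons but S2/S2-Dl compared with S2/S2-DlDI.

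The NFull line had 1 usable sample in each of its 3 mixes. In S2-NFull/S2 against S2/S2 none of the 69 genes was called by limma, where 0.181% of probe sets were, and 5 passed an unadjusted p below 0.05, 1 of them higher, against 6.84% of probe sets. The median was -0.14, with 53 genes below 0, against -0.06 over all probe sets. The lowest were mRpL30 at -0.59 ± 0.19, mRpS28 at -0.56 ± 0.18 and mRpL52 at -0.56 ± 0.26 (adjusted p = 0.546, 0.464 and 0.729). mRpS28 read 290, against 455, 469 and 409 in S2/S2.

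The highest was mRpL47, a relative of a bacterial large-subunit protein, at 0.39 ± 0.13 (adjusted p = 0.513). It read 1384 in S2-NFull/S2-Dl, 1262 in S2-NFull/S2-DlDI and 1279 in S2-NFull/S2. In the 12 samples without NFull cells it ran from 895 to 1051, with 965, 966 and 967 in S2/S2. All 3 samples with NFull cells thus lay above all others. Its second probe set gave 0.53 in S2-NFull/S2 against S2/S2 (adjusted p = 0.412). mRpL9 and mRpS26 followed there at 0.27 and 0.23, with SEs of 0.19 and 0.20.

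With Delta cells added to NFull cells (S2-NFull/S2-Dl compared with S2-NFull/S2), 54 of 69 genes lay below 0, with a median of -0.22, against 0.03 over all probe sets. mRpL35 read 150 in S2-NFull/S2-Dl, against 304 in S2-NFull/S2 (-0.88 ± 0.22, adjusted p = 0.159), and 151 in S2-NFull/S2-DlDI. These 2 mixes had the lowest mRpL35 values of the 15 samples. In S2-NFull/S2-DlDI against S2-NFull/S2, 60 genes lay below 0, with a median of -0.20, against 0.01. None of the 69 was called by limma, where 0.0213% of probe sets were, and 6, all lower, passed an unadjusted p below 0.05, against 3.5% of probe sets. After mRpL35, at -0.87 ± 0.22 (adjusted p = 0.787), and mRpL16 came mRpL20 at -0.64 ± 0.27, which read 123 in S2-NFull/S2-DlDI, against 209.8 in S2-NFull/S2, and the highest were mRpL4 at 0.23, mRpL46 at 0.12 and mRpL32 at 0.09, each smaller than its SE. Both comparisons share the single S2-NFull/S2 sample. Set against its counterpart with the shortened Delta, S2-NFull/S2-Dl had 35 genes above and 34 below 0. mRpL20 lay at 0.70 ± 0.27 and mRpL22 at 0.65 ± 0.20 (adjusted p = 0.567 and 0.418), and mRpL44 at -0.67 ± 0.18 (0.299).

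Other genes of mitochondrial gene expression gave 1 call. Of 54 measured genes for translation factors, tRNA synthetases, DNA and RNA upkeep, import and proteases, transcriptional regulators, and tko and bonsai, only tko in S2/S2-Dl against S2/S2 was called in any of the 11 comparisons. bonsai, for the S15 protein of the small subunit, was at -0.15 there (adjusted p = 0.699). The 54 genes had a median of -0.08 (17 above 0), the 8 translation factors one of -0.09 and the 15 tRNA synthetases one of -0.13. In S2/S2-DlDI against S2/S2 the median was -0.13 (13 above 0). The probe sets that mRpS10 and mRpL53 share with other genes lay at 0.04 and 0.22 in S2/S2-Dl against S2/S2 (adjusted p = 0.912 and 0.503).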

How the data were processed

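RNA of S2 cell mixes was measured on 24 Drosophila arrays. The authors deposited 1 intensity per probe set and array. How they were computed from the scans is not given in the sources used. On every array their 2%-trimmed mean was 150.004 to 150.005, so the scaling was kept. After 183 control probe sets were left out, 18769 were tested, dim ones included. Of them, 13647 named 1 gene in the platform annotation, 402 several and 4720 none. For each gene the single-gene probe set with the highest mean stood.

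Values were turned into log2(signal + 32), an offset that understates changes of dim probe sets, and fitted by mix with limma 3.58.1 in R 4.3.3 (8 mixes, 15 samples, 7 residual degrees of freedom, moderated with a mean trend). This is the test behind every adjusted p (Benjamini-Hochberg over all probe sets of a comparison). Arrays of a shared title were averaged where they differed less than separate replicates, which held for 1 of 5 pairs, and 8 arrays of the other pairs were left out. The number of arrays limits the precision. Nothing in the labels says whether pooled replicates came from separate cultures, so p-values measure the spread between these samples.

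Replicate numbers were checked by the correlation of same-numbered samples' deviations from their mix means, which was 0.506, 0.272 and 0.377 for S2/S2-Dl and S2/S2. Other mixes shared at most 2 numbers. The title was followed where it and the description of an S2/S2 sample gave different numbers.

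Genes named are those called in any comparison, the 3 largest changes each way per comparison, the 5 with the largest SD, and the 5 brightest and dimmest; signals of different probe sets are not ranked in the text, so the last are not listed. The genes, lists and tests were chosen with earlier results of these data known. Gene order, overlaps and chromosomes are from RefSeq (Release 6 plus ISO1 MT). Promoter motifs and sequences were not analysed here. The statistics were tested on simulated data. Alternatives were another offset, quantile normalization, no mean trend, a filter on low values, other uses of arrays of shared titles, a replicate block, only the mixes compared, all probe sets of a gene, and leaving out each sample.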

Additional observations from a re-analysis of the deposited data

Results flagged for a closer look

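Of the 8 arrays left out of the tests, 5 read above the highest S2/S2 value of mRpL39, which was 489.5. The 2 arrays labelled S2-NDCterm/S2-Dl replicate 2 read 1145 and 497.5 for mRpL39 and 11382 and 13.9 for Delta, so only the first carried Delta at the level of the other mixes with Delta cells. The first arrays labelled S2-NFull/S2-DlDI replicate 1 and replicate 3 read 976 and 1004 for mRpL39 and 12295 and 11031 for Delta, although the label names the shortened Delta. Their second arrays read 386 and 463 for mRpL39 and 156 and 1.67 for Delta. The first array labelled S2-NFull/S2 replicate 1 read 560 for mRpL39 with Delta at 6.60, and its second array 421 with Delta at 18.4. So the 3 left-out arrays with high Delta read 976 to 1145 for mRpL39, and the other 5 read 386 to 560. Because these labels do not settle what the arrays hold, no test was made on them.

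mRpL47 on the same arrays ran from 1162 to 1335 on the 6 labelled with NFull cells, above the 895 to 1051 of the samples without NFull cells in the tests. Of the arrays labelled S2-NDCterm/S2-Dl replicate 2 the first read 1291 and the second 788, outside the 925 and 971 of that mix's tested samples. This was looked at after the values were seen.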

How the results depend on the processing

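For mRpL39 the call in S2/S2-Dl against S2/S2 held under all 16 alternatives (log2 change 0.91 to 1.07, highest adjusted p 0.0116), and that against S2/S2-DlDI under all 15. With other uses of the arrays of shared titles the call was lost once against S2/S2-NDCterm and 2 times each in both NFull comparisons. No result reversed. In S2/S2-Dl against S2/S2, 3 genes were called, 5 with the replicate block and 1 with only the mixes compared. Leaving out a sample gave 1 to 5: 5 without S2/S2 replicate 1, and 1 without S2/S2 replicate 2 or S2/S2-Dl replicate 1. The filter on low values added mRpL44 (-0.45, adjusted p = 0.0429). With all arrays of shared titles averaged, or with the first arrays, mRpL39 and mRpL14 were called. The second arrays gave mRpL39 and mRpL44 (adjusted p = 0.0324 for mRpL44), without mRpL14 and mRpL16. In S2/S2-Dl compared with S2/S2-DlDI the replicate block called 2, not 1 (mRpL14 added, -0.43, adjusted p = 0.0464). In S2-NFull/S2 against S2/S2, with none called, averaging all arrays of shared titles called 2 (mRpS28 and mRpL47) and taking the second arrays called 1. In S2/S2-NDCterm against S2/S2, mRpL14 alone was called, and 0 were without the mean trend or with only the mixes compared, and 0 to 1 when a sample was left out, S2/S2 replicate 2 and both S2/S2-NDCterm samples losing the call. In S2-NDCterm/S2-Dl compared with S2/S2-NDCterm, 1 was called, 2 with an offset of 8 or the filter on low values, 0 with the second arrays, and 3 with the replicate block or only the mixes compared. In S2-NFull/S2-Dl compared with S2-NFull/S2, mRpL39 and mRpL16 were called. The call of mRpL16 was lost with the larger offset tried or without the mean trend, and both calls with the first arrays. The averaged arrays kept mRpL39, lost mRpL16 and added mRpL49 (-0.95). The second arrays gave mRpL49 (-1.01) and mRpL44 (-0.81) in place of mRpL39 and mRpL16. The replicate block lost mRpL16 and added mRpL14 (-0.99) and mRpL49, although the 2 samples carry different replicate numbers. The first arrays gave 1 call (mRpL35) in S2-NFull/S2-DlDI against S2-NFull/S2, where none was made. In S2-NFull/S2-Dl compared with S2-NFull/S2-DlDI, 1 was called, 0 with the arrays averaged or the first arrays, and 2 with the second. The cause of these changes was not tested. The family's median change kept its sign in the 9 comparisons and both tests of a difference under every alternative run. Fitting only the mixes compared was not possible in 3 NFull comparisons, which leave no residual degrees of freedom, nor was the promoter motif search, for lack of sequences. Other mixes shared at most 2 numbers, too few to settle a pairing: same-numbered deviations correlated at 0.285 and 0.202 for S2/S2-DlDI and S2/S2, at 0.206 and 0.230 for S2/S2-Dl and S2/S2-DlDI, and below 0.1 for the other mixes.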
